A study of Mus musculus with 904 samples.

Results

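The endogenous opioid system was followed through 7 genes of the 32285 in the count table: the peptide precursor genes Penk, Pdyn and Pnoc and the receptor genes Oprm1, Oprk1, Oprd1 and Oprl1. They were taken as a fixed list and measured in single nuclei of C57Bl/6J mice. The nuclei were sorted for a reporter, a fluorescent protein encoded together with histone H2B, that AAV PHP.eB vectors carry behind the DLX2.0 enhancer. Animals had received 5e11 vector genomes and nuclei were prepared 3 to 4 weeks later. Of 904 nuclei in 16 construct titles, 835 with 1000 or more detected genes and 10000 or more reads were kept. All 16 constructs share the enhancer, the capsid and the strain, no animal is named in the labels, and there is no uninjected group. By their titles they differ in the fluorescent protein (dTomato or SYFP2) and in the H2B part, such as P2A-3XFLAG-H2B or 10aa-H2Bmod. Titles also differ in added elements (SIRLOIN, BORG, smOPT or U7snRNAOPT, some marked 3x or 3'box), placed before or after the reporter.

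Classes were set by the CPM (counts scaled to 1000000 reads assigned to genes) of single marker genes, none of them an opioid gene. Nuclei with Rgs9 at 20 CPM or more and Slc17a7 under 20 CPM were called striatal projection nuclei (214), and these were divided by whether Drd1 was above Drd2 (112 nuclei), below it (72) or equal to it (30, called unsplit). The other classes were Sst at 100 CPM or more (114 nuclei), Pvalb at 20 CPM or more with Sst under 100 (92), excitatory with Slc17a7 at 50 CPM or more (134), astrocyte with Aqp4 at 20 CPM or more (35) and oligodendrocyte with Mog at 20 CPM or more (37). A further 117 kept nuclei met no rule and 92 met several; both sets were left out of the comparisons. Classes were compared over sums of the nuclei of each construct title. A construct title, called construct below, with at least 3 nuclei in both classes was 1 sample. Titles and vector labels disagree, with 4 to 5 vector labels per title and 3 to 9 titles per vector label. A sum of 1 title is thus not known to hold a single construct or to be independent of the others. The p-values therefore measure the spread between these sums, which may be technical. Log2 fold changes are those of the fits to these sums and can lie far from the ratio of the levels printed beside them. For Penk in striatal projection over excitatory nuclei, the ratio of summed levels was 8.91, far less than the log2 fold change of 5.63 stands for. For Oprk1 in Drd1 over Drd2 nuclei the ratio was 0.944, beside a log2 fold change of -3.59. The levels, not the fold changes, give the size of a difference in reads.

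Opioid peptides are cut from larger precursors by convertases and carboxypeptidase E and are stored in dense core vesicles. Penk encodes proenkephalin, the source of the enkephalins, Pdyn prodynorphin, the source of dynorphins, and Pnoc prepronociceptin, the source of nociceptin. Their receptors couple to Gi/o proteins, which lower adenylyl cyclase activity, open inwardly rectifying potassium channels and close presynaptic calcium channels: Oprm1 encodes the mu, Oprd1 the delta, Oprk1 the kappa and Oprl1 the nociceptin receptor. In the striatum, enkephalin is a classical marker of the indirect pathway neurons that carry Drd2, and dynorphin of the direct pathway neurons that carry Drd1, while in the cortex Penk and Pdyn are found in subsets of interneurons.

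Every nucleus is labelled as primary visual cortex, whereas the series text also lists anterior lateral motor cortex and striatum. The striatal projection class nevertheless carried the defining striatal genes: 8 of 8 listed markers had reads, each in at least 25% of the Drd1 nuclei and of the Drd2 nuclei, and their summed level was 6713 CPM in Drd1 and 7492 CPM in Drd2 nuclei, against 330 CPM in Pvalb and 930 CPM in excitatory nuclei. Adora2a, the adenosine receptor of indirect pathway neurons, had reads in 1.79% of Drd1 and 56.9% of Drd2 nuclei. Tac1, the substance P precursor gene of direct pathway neurons, had reads in 91.1% of Drd1 and 13.9% of Drd2 nuclei. Nuclei came from 3 library pools. The striatal class held 141 nuclei in pool S40325, 73 in pool S40327 and 0 in pool S40317, so pool and class were partly confounded. Of 545 index pairs, 221 were used in 2 or more pools, and no 2 kept libraries were identical. Kept nuclei held 30023 to 719419 reads (median 260274), and the median per class ran from 233164 in excitatory to 325977 in oligodendrocyte nuclei.

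Positions of the 7 genes are on mm10 (GENCODE M21). Penk is at chr4:4133531-4138819 on the minus strand and Oprd1 at chr4:132110726-132144486 on the minus strand. Pdyn is at chr2:129686565-129699844 on the minus strand and Oprl1 at chr2:181715016-181720985 on the plus strand. Pnoc is at chr14:65400673-65425472 on the minus strand, Oprm1 at chr10:6758506-7038198 on the plus strand and Oprk1 at chr1:5588466-5606131 on the plus strand. Penk overlaps A830012C17Rik, and Oprm1 overlaps Gm10945 and Ipcef1, all on the opposite strand. Whether the counting used strand is not given in the sources used here, so reads in those overlaps cannot be told apart.

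**Figure D1:**
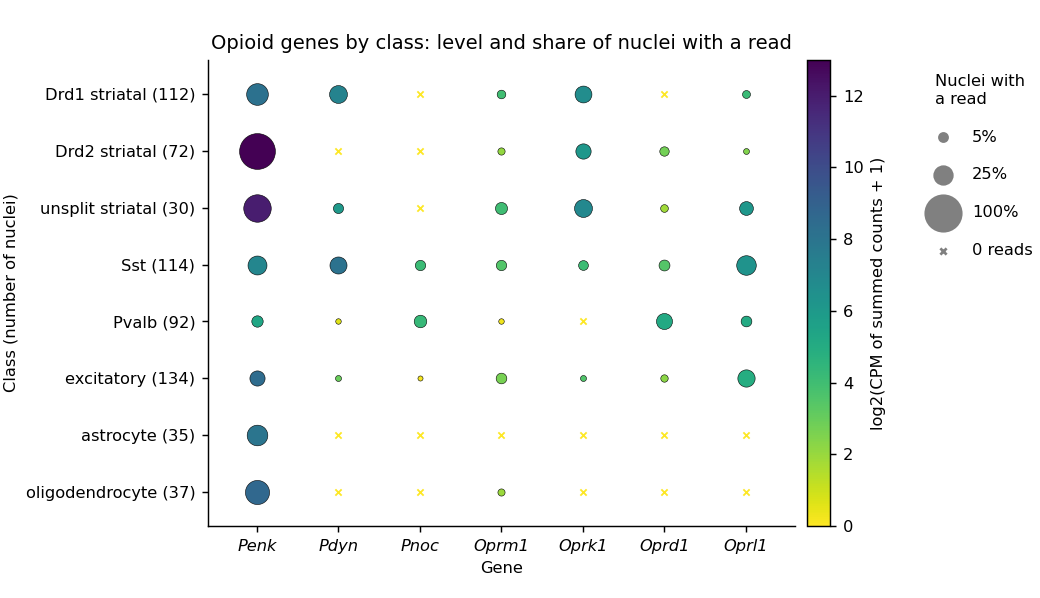
Level and detection of the 7 opioid genes in 8 classes of nuclei (rows, with the number of nuclei). Colour is log2 of the CPM of the summed counts plus 1, dot area rises with the share of nuclei with a read, and crosses mark 0 reads. Penk had its darkest and largest dot in Drd2 nuclei (8078 CPM, 97.2% of nuclei), and in the glial classes Penk alone had reads in more than 1 nucleus.

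Penk was lower in Drd1 than in Drd2 striatal projection nuclei. Penk reads were found in 39 of 112 Drd1 nuclei (34.8%, 95% Clopper-Pearson interval 26.1 to 44.4%) and in 70 of 72 Drd2 nuclei (97.2%, interval 90.3 to 99.7%). Over the 6 constructs with at least 3 nuclei of both kinds, the lowest, median and highest level was 0, 262 and 643 CPM in Drd1 nuclei, against 3025, 6546 and 10435 CPM in Drd2 nuclei. The ranges did not overlap, and Penk was lower in Drd1 nuclei in 6 of 6 constructs. The means were 289 ± 233 CPM in Drd1 and 6663 ± 3242 CPM in Drd2 nuclei (SD, n = 6 constructs), a log2 fold change of -5.10 (SE 0.78, adjusted p = 0.00835, edgeR quasi-likelihood test with Benjamini-Hochberg adjustment). In this comparison 0.107% of all tested genes were called (9 of 8408), and of the 3 opioid genes that passed the filter on low counts 2 were called, Penk and Pdyn. Penk stayed lower in Drd1 nuclei when each construct was left out in turn (log2 fold change -5.64 to -4.46), and it lost its call without 1 of them, DLX2.0-SYFP2-10aa-H2Bmod-BC (adjusted p = 0.0529, edgeR).

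The difference in Penk was of like size within each pool. In pool S40325 the level was 338 CPM in 65 Drd1 nuclei against 8647 CPM in 55 Drd2 nuclei, and in pool S40327 it was 184 CPM in 47 Drd1 nuclei against 5906 CPM in 17 Drd2 nuclei. The unsplit striatal nuclei, with no read of either dopamine receptor, held both kinds of value: 17 of 30 had Penk reads, and the level was 4045 CPM. Near the Rgs9 threshold few nuclei were found. Of 4 nuclei with Rgs9 between 20 and 40 CPM, 2 had Penk reads, and of 5 nuclei with Rgs9 above 0 and under 20 CPM, 1 had.

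Penk in Drd1 nuclei was lower in amount as well as in frequency. Among nuclei with a Penk read, the median was 417 CPM in Drd1 nuclei (highest 5411) and 7312 CPM in Drd2 nuclei (highest 22431). The 10th percentile over all Drd2 nuclei, 2067 CPM, lay above the 90th percentile over all Drd1 nuclei, 731 CPM. Only 3 of the 112 Drd1 nuclei had any Drd2 read, and of the other 109 nuclei 37 had Penk reads (33.9%), at most 2290 CPM. For comparison, Penk reads were found in 43.2% of oligodendrocyte, 31.4% of astrocyte, 26.3% of Sst, 16.4% of excitatory and 8.70% of Pvalb nuclei, so that the share in Drd1 nuclei lay within the range of the other classes. Their medians among nuclei with a read were 772, 600, 311, 236 and 264 CPM in the same order, and the median depth was 264912 reads per nucleus in Drd1 nuclei and 251100 in Pvalb nuclei.

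**Figure D2:**
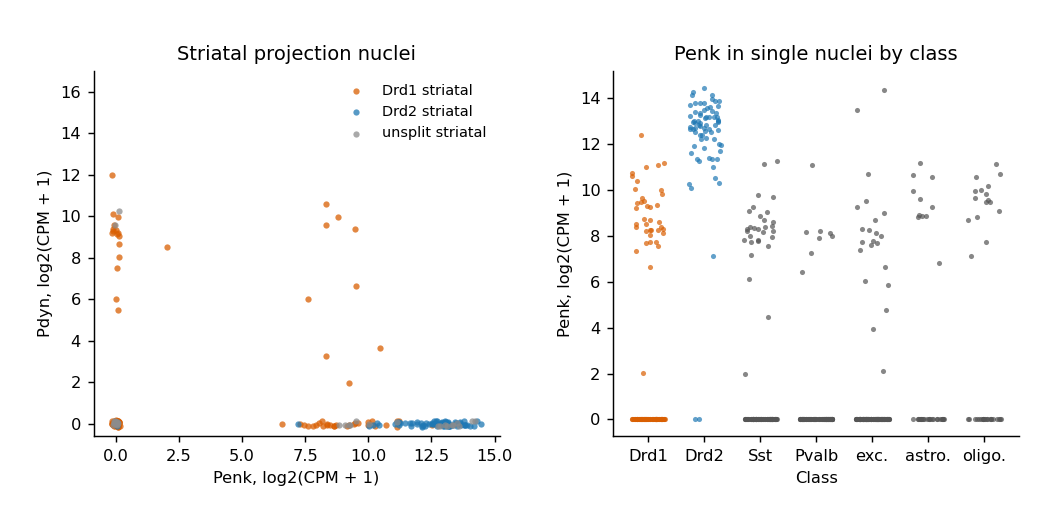
Single nuclei, log2 of CPM plus 1. The left panel plots Pdyn against Penk in Drd1 (orange), Drd2 (blue) and unsplit (grey) striatal projection nuclei, with a small random shift to separate points; 10 Drd1 nuclei had reads of both genes and no Drd2 nucleus had a Pdyn read. The right panel plots Penk by class; most Drd2 nuclei lie above the 6 other classes shown (unsplit nuclei are not in this panel), where 2 excitatory nuclei are the highest at 11393 and 20721 CPM.

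Pdyn reads were seen on the Drd1 side alone. The gene had reads in 26 of 112 Drd1 nuclei (23.2%, interval 15.8 to 32.1%) and in 0 of 72 Drd2 nuclei, which allows a share of up to 4.99% (upper Clopper-Pearson bound). Over the same 6 constructs, the lowest, median and highest level was 40.4, 139 and 321 CPM in Drd1 nuclei, and all 6 sums of Drd2 nuclei were at 0 reads. With the Drd2 side set to 3 reads over the group, Pdyn was at least 831-fold higher in Drd1 nuclei (adjusted p = 0.0389, higher in 6 of 6 constructs). When only nuclei with at least 2000 genes were used, 5 constructs remained and the adjusted p was 0.0622; grouped by vector label and in pool S40325 alone Pdyn was not called either. With each construct left out in turn, the call was kept in 1 of 6 fits and the adjusted p ran from 0.0490 to 0.277 (edgeR), the highest without DLX2.0-dTomato-H2B, where Pdyn was at least 430-fold higher. Pdyn had passed the filter on low counts through the Drd1 sums alone, and the count of 2 called genes includes it. The intervals and the 3-read floor cover counting error only, since reads without molecular identifiers are not independent molecules.

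All 26 Drd1 nuclei with Pdyn reads also had Tac1 reads, as did 102 of the 112 Drd1 nuclei. Penk and Pdyn were read together in 10 Drd1 nuclei, which were 25.6% of those with Penk and 38.5% of those with Pdyn. Among nuclei with a read, Pdyn had a median of 543 CPM in Drd1 nuclei (highest 3915). In pool S40325 Pdyn had 99.2 CPM and in pool S40327 219 CPM in Drd1 nuclei, with 13 positive nuclei in each.

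**Figure D3:**
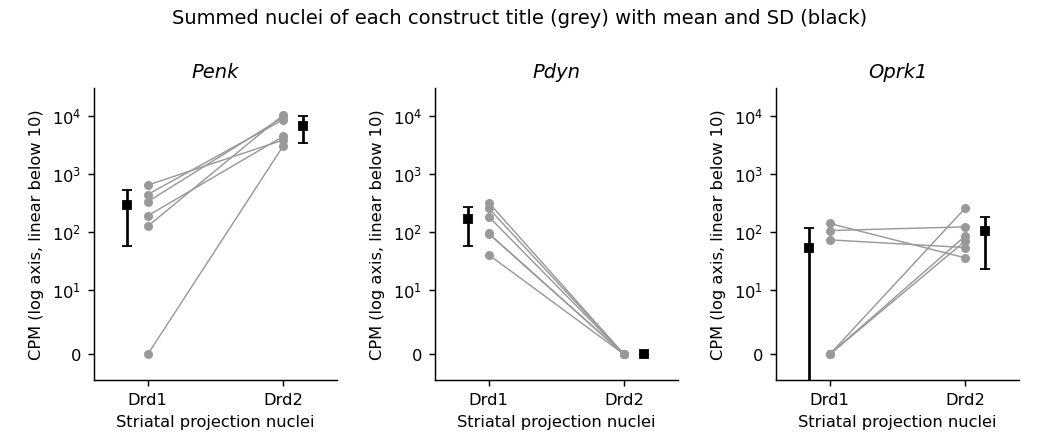
Penk, Pdyn and Oprk1 in Drd1 and Drd2 striatal projection nuclei. Each grey line joins the summed nuclei of 1 construct title (n = 6), black squares and bars are the mean and SD (cut at the axis where they pass below 0), and the axis is logarithmic above 10 CPM. Penk was lower and Pdyn higher in Drd1 nuclei in all 6 constructs, while Oprk1 was higher in Drd1 nuclei in 2 and lower in 4.

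The region upstream of the Pdyn start and of the Oprd1 start is printed because these genes had 0 reads on opposite sides of the striatal comparison (Pdyn in Drd2, Oprd1 in Drd1 nuclei). Sequences are from RefSeq on GRCm38.p6, 250 bases before to 50 after the annotated start, 5′ to 3′ on the minus strand. Capitals mark GGGCGG or its reverse complement CCGCCC, the core of the GC box.
Pdyn, chr2:129699889-129700188: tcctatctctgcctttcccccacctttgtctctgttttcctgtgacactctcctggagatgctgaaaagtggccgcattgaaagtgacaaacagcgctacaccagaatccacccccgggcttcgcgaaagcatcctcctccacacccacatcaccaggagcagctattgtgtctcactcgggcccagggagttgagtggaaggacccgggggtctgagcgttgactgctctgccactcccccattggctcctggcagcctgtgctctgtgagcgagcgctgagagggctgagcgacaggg
Oprd1, chr4:132144437-132144736: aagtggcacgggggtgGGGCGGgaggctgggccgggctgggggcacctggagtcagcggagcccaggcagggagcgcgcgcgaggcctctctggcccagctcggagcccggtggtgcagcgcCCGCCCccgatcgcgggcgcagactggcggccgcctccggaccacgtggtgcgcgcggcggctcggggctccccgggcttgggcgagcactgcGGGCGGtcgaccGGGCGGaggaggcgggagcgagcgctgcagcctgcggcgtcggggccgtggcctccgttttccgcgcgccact
Oprd1 had 4 matches and Pdyn 0, and 35.7% of all 32851 promoters in the table hold at least 1 match on either strand. The G and C content was 59% for Pdyn and 79.3% for Oprd1, against a median of 52.7% over all promoters. TGACGTCA, the full cyclic AMP response element (in 1.79% of promoters), its shorter core TGACG or CGTCA (20.8%) and TATAAA or TTTATA (13.6%) were found in neither window. These matches describe letters only. Of the 7 genes, 4 (Pdyn, Oprl1, Oprd1 and Oprm1) matched the promoter table. The table holds a further Pdyn start, downstream of the printed one, whose window (chr2:129698609-129698908) has a G and C content of 44.3%, below the median, and 0 matches to each of these motifs.

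Taken as a whole, striatal projection nuclei had more Penk than the excitatory, Sst and Pvalb classes. Against excitatory nuclei (12 constructs), the lowest, median and highest level was 112, 2509 and 7062 CPM in striatal projection nuclei, and 0, 46.7 and 2074 CPM in excitatory nuclei. Penk was higher in striatal projection nuclei in 12 of 12 constructs (log2 fold change 5.63, SE 1.03, adjusted p = 0.000878), in a comparison where 4.4% of all genes were called and the median log2 fold change of all genes was -0.42. Against Sst nuclei (13 constructs), the levels were 112, 2576 and 7062 CPM in striatal projection nuclei, and 0, 78.8 and 784 CPM in Sst nuclei, higher in 12 of 13 constructs (log2 fold change 6.03, SE 1.03, adjusted p = 0.000336; background 7.17%). Against Pvalb nuclei (11 constructs), they were 112, 2825 and 7062 CPM in striatal projection nuclei, and 0, 0 and 55.1 CPM in Pvalb nuclei (log2 fold change 11.17, SE 0.88, adjusted p = 6.41e-09; background 6.06%). The ranges did not overlap against Pvalb nuclei and overlapped against the other 2 classes. In each of these 3 comparisons Penk was the only opioid gene called, of 2, 4 and 1 that passed the filter against excitatory, Sst and Pvalb nuclei. Penk was above 0 in every striatal projection sum, and in 9 of 12 excitatory, 9 of 13 Sst and 3 of 11 Pvalb sums. Against Pvalb nuclei it passed the filter through the striatal projection sums, where it is high. The count of 1 called of 1 tested there is therefore no support for the difference.

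The Penk level of the excitatory class rested on few nuclei. Reads were found in 22 of 134 excitatory nuclei (16.4%), with a median of 236 CPM among them, but 2 nuclei of pool S40325 had 11393 and 20721 CPM. Both had Rgs9 above the striatal threshold and had been kept out of the striatal class by their Slc17a7 reads. The 16 excitatory nuclei with Rgs9 at 20 CPM or more had 2386 CPM of Penk, and the 118 with less had 59.8 CPM, with reads in 17. With those 118 nuclei alone the log2 fold change of striatal projection over excitatory nuclei was 7.42 (SE 0.996, adjusted p = 1.73e-05), an alternative chosen after the data were seen. In pool S40317, which held no striatal projection nucleus, 12 of 54 excitatory nuclei had Penk reads and the level was 91.9 CPM.

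Glial nuclei carried Penk and almost none of the other members. Penk had reads in 11 of 35 astrocyte nuclei (31.4%, interval 16.9 to 49.3%) and 16 of 37 oligodendrocyte nuclei (43.2%, interval 27.1 to 60.5%), with medians among these of 600 and 772 CPM. By construct the level was 272 ± 270 CPM in astrocyte nuclei (SD, n = 8) and 470 ± 240 CPM in oligodendrocyte nuclei (SD, n = 6), and all 6 oligodendrocyte sums were above 0. Drd2 had reads in 1 of 11 astrocyte nuclei with Penk against 0 of 24 without, and in 3 of 16 oligodendrocyte nuclei with Penk against 0 of 21 without. Adora2a had 0 reads in glial nuclei with and without Penk. Ppp1r1b, which encodes the striatal phosphoprotein DARPP-32, had reads in 7 of 11 astrocyte nuclei with Penk against 9 of 24 without. Among oligodendrocyte nuclei it had reads in 7 of 16 with Penk against 6 of 21 without. The summed level of the 8 striatal markers was 816 CPM in astrocyte nuclei with Penk against 419 CPM in those without, and 464 CPM in oligodendrocyte nuclei with Penk against 539 CPM in those without. By pool, Penk had reads in 0 of 5 astrocyte nuclei in S40317, 1 of 5 in S40325 and 10 of 25 in S40327. The part of pool and of RNA from other cells in these values was not tested.

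Sst nuclei, which carry the somatostatin gene, held reads of all 7 members. Penk had reads in 30 of 114 (26.3%, level 129 CPM), and these fell unevenly over the class: 23 of 47 Sst nuclei with Nos1 reads had Penk (48.9%), against 7 of 67 without Nos1 (10.4%). Nos1 encodes neuronal nitric oxide synthase, which marks a subset of Sst neurons in cortex and striatum. Nuclei are not samples, and these shares are given as a description. Penk was found in 0 of 7 Sst nuclei of pool S40317, 18 of 46 of pool S40325 and 12 of 61 of pool S40327.

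Pdyn had reads in 24 of 114 Sst nuclei (21.1%, interval 13.98 to 29.7%), with a level of 276 CPM. By pool it was read in 4 of 7 Sst nuclei in S40317 (513 CPM), 5 of 46 in S40325 (106 CPM) and 15 of 61 in S40327 (387 CPM). None of the 25 Sst nuclei with reads of Chodl, a marker of long-range projecting Sst neurons, had a Pdyn read, against 24 of the 89 without Chodl (26.97%). Penk and Pdyn were read together in 4 Sst nuclei. By construct Pdyn reached 290 ± 332 CPM in Sst nuclei (SD, n = 15), 121 ± 95.2 CPM in Drd1 nuclei (SD, n = 11), 3.14 ± 11.8 CPM in excitatory nuclei (SD, n = 14) and 0.763 ± 2.75 CPM in Pvalb nuclei (SD, n = 13). In that order, Sst and Drd1 nuclei lay within their spread of each other, and so did excitatory and Pvalb nuclei. Fits with the filter off can give far smaller standard errors on the same sums. For Penk in Drd1 against Drd2 nuclei the SE was 0.17 with the filter off and 0.78 with it, at a log2 fold change of -5.10 in both. Adjusted p-values with the filter off, here and below, are therefore not comparable with those of the main fits. In Sst nuclei Pdyn stayed under the filter on low counts against Pvalb and against excitatory nuclei. With the filter off it was called in both, at 313 CPM in Sst and 0.587 CPM in Pvalb nuclei (ratio 533, counting interval 312 to 1002; adjusted p = 3.68e-24; higher in 10 of 12 constructs), and at 299 CPM in Sst against 7.36 CPM in excitatory nuclei (ratio 40.6, counting interval 35.6 to 46.5; adjusted p = 3.83e-21; higher in 10 of 13 constructs). All 227 Pdyn reads of the excitatory side came from 1 construct, DLX2.0-SYFP2-P2A-3XFLAG-H2B, and without it Pdyn was at least 2722-fold higher in Sst nuclei (adjusted p = 7.87e-26, edgeR). The Pvalb reads also came from 1 construct, DLX2.0-SYFP2-H2B-3xU7snRNAOPT-BC, and without it Pdyn was at least 2047-fold higher in Sst nuclei. Between striatal projection and Sst nuclei the log2 fold change of Pdyn was -0.90 (SE 1.04, adjusted p = 0.809).

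Between the Sst, Pvalb and excitatory classes, edgeR with the filter on low counts and sums of at least 3 nuclei per construct called no opioid gene. Other settings called Pdyn, higher in Sst than in excitatory nuclei with at least 5 nuclei per construct (adjusted p = 0.000281) and by vector label (adjusted p = 0.000592), and higher in Sst than in Pvalb nuclei in pool S40327 (adjusted p = 0.000583). Between Sst and Pvalb nuclei, 0 of the 2 tested members were called and 0 had an unadjusted p under 0.05, while 0.874% of all genes were called; DESeq2 called 0 as well. Between Sst and excitatory nuclei, 0 of 2 were called and 0 had an unadjusted p under 0.05, while 3.97% of all genes were called, and DESeq2 called 0. Between Pvalb and excitatory nuclei, 0 of 2 were called and 1 had an unadjusted p under 0.05, while 5.17% of all genes were called, and DESeq2 called 1, Penk. Penk in that comparison averaged 51.9 ± 129 CPM in Pvalb nuclei and 304 ± 607 CPM in excitatory nuclei (SD, n = 12 constructs; log2 fold change -4.33, SE 1.58, adjusted p = 0.145). With the 118 excitatory nuclei of low Rgs9 its adjusted p was 0.904. Between Sst and excitatory nuclei the log2 fold change of Penk was -2.10 (SE 1.55, adjusted p = 0.673), and it turned to 0.76 with those 118 nuclei.

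Pnoc was read only outside the striatal projection class among the neuron classes. It had 0 reads in 214 striatal projection nuclei, which allows a share of up to 1.71%, and 0 reads in both glial classes. It had reads in 8 of 114 Sst nuclei (16.8 CPM), 10 of 92 Pvalb nuclei (18.5 CPM) and 1 of 134 excitatory nuclei (0.150 CPM). In pools S40317, S40325 and S40327 it was read in 4 of 16, 0 of 40 and 6 of 36 Pvalb nuclei. The same pools had 0 of 7, 2 of 46 and 6 of 61 Sst nuclei with Pnoc reads. Pool S40325 also held 141 of the 214 striatal projection nuclei, and the part of pool was not tested. By construct it averaged 25.6 ± 63.5 CPM in Sst (SD, n = 15), 20.3 ± 26.7 CPM in Pvalb (SD, n = 13) and 0.143 ± 0.534 CPM in excitatory nuclei (SD, n = 14), and the Sst and Pvalb values lay within their spread. The gene passed the filter in no comparison. With the filter off it was called lower in striatal projection than in Sst nuclei (at least 358-fold, adjusted p = 0.0356). The construct DLX2.0-3xU7snRNAOPT-SYFP2-H2B-BC held 253 of the 499 Sst reads, and without it the difference was at least 178-fold and not called (adjusted p = 0.170, edgeR). With the filter off Pnoc was also called higher in Pvalb than in excitatory nuclei (ratio 121, counting interval 51.5 to 375; adjusted p = 0.0405), and without DLX2.0-BORG-SYFP2-H2B-BC it was not (ratio 88.3, adjusted p = 0.126, edgeR). Among the 117 nuclei of no class, 12 had Pnoc reads, and 11 of these 12 also had reads of Adarb2, a marker of interneurons of caudal origin, which 36 of the 117 carried.

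**Figure D4:**
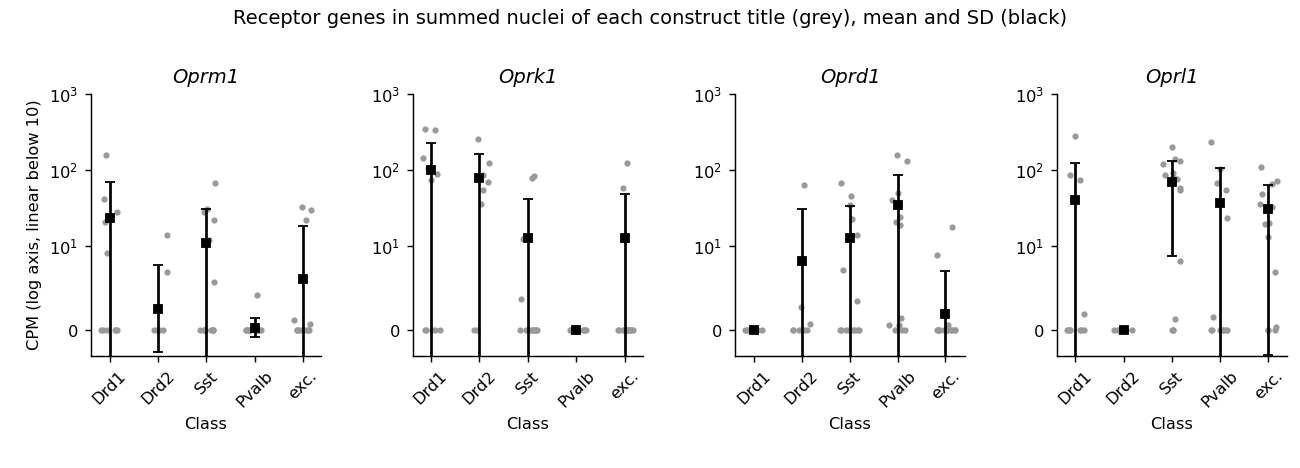
The 4 receptor genes in 5 classes. Grey points are the summed nuclei of 1 construct title each, and black squares and bars are the mean and SD (cut at the axis where they pass below 0); the axis is logarithmic above 10 CPM. Oprk1 was highest in the 2 striatal classes, Oprd1 in Pvalb and Oprl1 in Sst nuclei, with wide overlap between neighbours.

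Oprk1, the kappa receptor that binds dynorphins, had its highest levels in striatal projection nuclei of both kinds. It had reads in 23 of 112 Drd1 nuclei (102 CPM) and 12 of 72 Drd2 nuclei (67.4 CPM), against 7 of 114 Sst nuclei (15.9 CPM), 2 of 134 excitatory nuclei (10.8 CPM) and 0 of 92 Pvalb nuclei, which allows a share of up to 3.93%. Over 13 constructs Oprk1 averaged 99.9 ± 108 CPM in striatal projection nuclei and 14.7 ± 29.8 CPM in Sst nuclei (SD), higher in 10 of 13 constructs, with an adjusted p of 0.0796 that missed the threshold (log2 fold change 6.23, SE 2.08). It passed without either of DLX2.0-3xsmOPT-SYFP2-H2B-BC (adjusted p = 0.0285) and DLX2.0-BORG-SYFP2-H2B-BC (adjusted p = 0.0206). DESeq2 on the same sums gave an adjusted p of 4.02e-08, and edgeR with the filter off one of 0.00411. Against Pvalb nuclei Oprk1 did not pass the filter; it was at least 640-fold higher in striatal projection nuclei, with 96.8 CPM against 0 reads. With the filter off it was called in that comparison (adjusted p = 3.42e-06) and against excitatory nuclei (adjusted p = 0.000591), where it had 88.1 CPM in striatal projection and 13.9 CPM in excitatory nuclei. Of the excitatory reads 306 came from DLX2.0-BORG-SYFP2-H2B-BC, and without that construct Oprk1 had 90.8 CPM in striatal projection and 2.35 CPM in excitatory nuclei (adjusted p = 4.80e-05, edgeR).

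Between the 2 kinds of striatal nuclei Oprk1 was not called. Over the 6 shared constructs, it averaged 53.2 ± 62.1 CPM in Drd1 and 104 ± 80.5 CPM in Drd2 nuclei (SD; log2 fold change -3.59, SE 2.74, adjusted p = 1). Grouped by vector label the log2 fold change was 0.32, of the opposite sign, and over all nuclei of each class the level was higher in Drd1 nuclei. Both genes of the dynorphin pair were read in 5 Drd1 nuclei, 19.2% of those with Pdyn, whereas 18 of the 86 Drd1 nuclei without Pdyn had Oprk1 reads. All 12 Drd2 nuclei with Oprk1 reads had Penk reads, as did 97.2% of that class.

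Oprl1, the nociceptin receptor, was read most often in Sst and excitatory nuclei. Reads were present in 4 of 112 Drd1 nuclei (17.3 CPM), 1 of 72 Drd2 nuclei (4.52 CPM) and 4 of 30 unsplit striatal nuclei (67.3 CPM), against 32 of 114 Sst nuclei (28.1%, 78.9 CPM), 7 of 92 Pvalb nuclei (7.61%, 32.9 CPM) and 29 of 134 excitatory nuclei (21.6%, 30.4 CPM). The unsplit nuclei held 532 of the 1146 Oprl1 reads of the striatal projection class. Over 13 constructs it averaged 19.1 ± 28.6 CPM in striatal projection and 64.8 ± 49.9 CPM in Sst nuclei (SD), lower in striatal nuclei in 10 of 13 constructs. The log2 fold change was -4.94 (SE 2.32, p = 0.0442, adjusted p = 0.28), and DESeq2 gave an adjusted p of 6.06e-05. Between Sst and Pvalb nuclei the log2 fold change was 3.32 (SE 1.89, adjusted p = 0.907), and between Sst and excitatory nuclei 1.54 (SE 1.46, adjusted p = 0.767). The class levels of Oprl1 in Sst, Pvalb and excitatory nuclei were 69.3 ± 60.5, 36.8 ± 66.9 and 30.05 ± 33 CPM by construct (SD, n = 15, 13 and 14), within their spread of each other.

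Oprd1, the delta receptor that binds enkephalins, had its highest level in Pvalb nuclei. It had reads in 17 of 92 Pvalb nuclei (18.5%, interval 11.1 to 27.9%, 34.5 CPM), 9 of 114 Sst nuclei (10.1 CPM), 4 of 134 excitatory nuclei (3.81 CPM) and 4 of 72 Drd2 nuclei (5.80 CPM). In Drd1 nuclei it had 0 reads in 112, which allows a share of up to 3.24%. By construct the level was 33.8 ± 51.2 CPM in Pvalb (SD, n = 13), 12.8 ± 20.5 CPM in Sst (SD, n = 15), 8.23 ± 21.9 CPM in Drd2 (SD, n = 8) and 1.95 ± 5.12 CPM in excitatory nuclei (SD, n = 14), and neighbours in that order lay within their spread. Oprd1 passed the filter in no comparison. With the filter off it had adjusted p = 0.108 between Pvalb and excitatory nuclei (37.1 against 4.20 CPM, higher in 8 of 12 constructs) and 0.104 between striatal projection and Pvalb nuclei (1.97 against 39.3 CPM, lower in 9 of 11 constructs). Among Sst nuclei, 0 of 47 with Nos1 reads and 9 of 67 without had Oprd1 reads. Of the 92 Pvalb nuclei, 7 had Oprl1 reads, 17 had Oprd1 reads and 0 had both. With so few positive nuclei this does not tell whether the 2 genes exclude each other.

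Oprm1, the mu receptor that binds enkephalins and endorphin, was sparse in every class and passed the filter in no comparison. Reads were present in 5 of 112 Drd1 nuclei (14.9 CPM), 2 of 72 Drd2 nuclei (3.25 CPM), 8 of 114 Sst nuclei (10.5 CPM), 10 of 134 excitatory nuclei (5.34 CPM) and 1 of 92 Pvalb nuclei (0.208 CPM). By construct it averaged 22.96 ± 45.7 CPM in Drd1 nuclei (SD, n = 11) and 11.01 ± 19 CPM in Sst nuclei (SD, n = 15), within the spread. With the filter off no comparison called it, the lowest adjusted p being 0.193 between striatal projection and Pvalb nuclei (12.6 CPM against 0.252 CPM).

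Genes with profiles most like each member were sought over 75 sums of construct and class in 7 classes, by Pearson correlation of log2(CPM + 1) among 12238 genes with a mean of 5 CPM or more. The sums share constructs, pools and depth, so these values are a description. For Penk they were ENSMUSG00000118401 (r = 0.62), Zfhx3 (r = 0.60) and Drd2 (r = 0.60), the last used to divide the striatal nuclei. For Pdyn they were Zcchc12 (r = 0.60), Synpr (r = 0.59) and Sfrp2 (r = 0.59). For Pnoc, above 0 in 14 sums, they were Dlx1 (r = 0.61), Crhbp (r = 0.60) and Kcnmb2 (r = 0.58). Among the receptors, Oprk1 was most like Gprin3 (r = 0.61), Mhrt (r = 0.61) and 6530403H02Rik (r = 0.60), and Oprd1 most like 6330576A10Rik (r = 0.70), Vwc2 (r = 0.66) and Cemip (r = 0.62). Oprl1 was most like Nrg3os (r = 0.60), Capn15 (r = 0.58) and Kcnc2 (r = 0.57), and Oprm1, above 0 in 19 sums, reached r = 0.44 with Gm32849, 0.43 with Zfp825 and 0.43 with Anxa2.

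Genes that process the precursors were called in some comparisons between classes and not in others. Of 6 listed processing genes, 1 was called higher and 1 lower in striatal projection than in Sst nuclei, where 7.17% of all genes were called, with a median log2 fold change of -0.74 over the list against 0.03 over all genes. Against excitatory nuclei 0 of the 6 were called by edgeR in the striatal projection class. Pcsk2, the convertase that cuts dynorphin and enkephalin from their precursors, was higher in striatal projection nuclei, with 357 CPM against 77.8 CPM in Sst nuclei (log2 fold change 2.66, SE 0.63, adjusted p = 0.0085) and 40.2 CPM in Pvalb nuclei (4.56, SE 0.70, adjusted p = 0.00012). Against Pvalb nuclei it was the only called gene of the 5 tested, where 6.06% of all genes were called. Cpe, the carboxypeptidase that trims the cut peptides, was lower in striatal projection than in Sst nuclei (594 against 1056 CPM; log2 fold change -0.86, SE 0.21, adjusted p = 0.0115). Pcsk1, the other convertase, was lower in Pvalb than in excitatory nuclei (1.37 against 110.9 CPM; log2 fold change -9.57, SE 1.2, adjusted p = 1.17e-05), as was Pcsk2 (-4.34, SE 0.79, adjusted p = 0.000968). These were 2 of the 6 tested there, where 5.17% of all genes were called. Pcsk1 had 33 reads in Pvalb nuclei and passed the filter mainly through the excitatory sums. In Sst against excitatory nuclei Pcsk2 was lower (-2.61, SE 0.50, adjusted p = 0.00179) and Pcsk1n, which encodes an inhibitor of Pcsk1, higher (1.31, SE 0.34, adjusted p = 0.026). The list had 6 genes tested in that comparison, where 3.97% of all genes were called. Between Drd1 and Drd2 nuclei 0 of the 6 were called by edgeR (smallest p 0.459, Cpe).

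Among 7 peptide-degrading enzymes, Mme (neprilysin, an enkephalin-cleaving peptidase) was higher in striatal projection nuclei, with 97.2 CPM against 5.31 CPM in excitatory nuclei (log2 fold change 8.40, SE 1.35, adjusted p = 0.000234); it was the only called gene of the 4 tested, in a comparison where 4.4% of all genes were called. Mme had 177 reads in excitatory nuclei and passed the filter there mainly through the striatal projection sums, so the count of 1 called is no support for the difference. Against Sst and Pvalb nuclei its adjusted p was 0.134 and 0.325. Ece2, an endothelin-converting enzyme family member, was lower in striatal projection than in Sst nuclei (14.6 against 103 CPM; -5.20, SE 1.42, adjusted p = 0.0239) and higher in Sst than in excitatory nuclei (103 against 8.94 CPM; 7.24, SE 1.66, adjusted p = 0.00835). It was the only called gene of 5 tested in the first comparison (7.17% of all genes called) and of 4 in the second (3.97%). Ece2 passed the filter in both mainly through the Sst sums, where it is high, so these counts are no support for the differences.

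Of 11 genes for Gi/o transduction and its effectors, Adcy5, the main adenylyl cyclase of striatal neurons, was higher in striatal projection nuclei against excitatory (627 against 50.3 CPM; log2 fold change 4.92, SE 0.80, adjusted p = 0.000281), Sst (4.30, SE 0.54, adjusted p = 7.96e-06) and Pvalb nuclei (7.14, SE 1.01, adjusted p = 3.92e-05); it is also on the list of striatal markers. Kcnj6, a subunit of G protein-gated potassium channels, was lower than in excitatory nuclei both in striatal projection nuclei (0.926 against 82.5 CPM; -9.04, SE 1.29, adjusted p = 7.03e-05) and in Sst nuclei (9.58 CPM; -5.21, SE 1.19, adjusted p = 0.00832). These were the only called genes of the list in the 7 comparisons. Of 11 tested, 1 was called higher and 1 lower in striatal projection than in excitatory nuclei, against 4.4% of all genes. Against Sst and Pvalb nuclei 1 of 9 was called in each, against 7.17% and 6.06% of all genes. In Sst against excitatory nuclei 1 of 11 was called, against 3.97% of all genes. Kcnj6 had 53 reads in striatal projection nuclei and passed the filter there mainly through the excitatory sums.

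Of 7 desensitization genes, Rgs4 and Grk3 were called in several comparisons. Striatal projection nuclei had 1 called higher and 1 lower of the 5 tested against excitatory, 6 against Sst and 5 against Pvalb nuclei. All genes called in these comparisons were 4.4%, 7.17% and 6.06%. Against excitatory nuclei, Sst nuclei had 1 lower of 6 (3.97% of all genes), and Pvalb nuclei 1 higher and 1 lower of 6 (5.17%). Rgs4, which speeds the turn-off of Gi/o proteins, had 614 CPM in striatal projection nuclei, against 376 CPM in excitatory nuclei (log2 fold change 1.07, SE 0.23, adjusted p = 0.00524), 70.8 CPM in Sst nuclei (5.66, SE 1.10, adjusted p = 0.00135) and 59.6 CPM in Pvalb nuclei (7.62, SE 1.33, adjusted p = 0.000465). It was lower than in excitatory nuclei in Sst (-4.85, SE 1.09, adjusted p = 0.00712) and Pvalb nuclei (-6.45, SE 1.19, adjusted p = 0.00108). Grk3, a kinase that phosphorylates active receptors, ran the other way: 12.6 CPM in striatal projection nuclei, against 90.5 CPM in excitatory (-8.21, SE 1.72, adjusted p = 0.00393), 211 CPM in Sst (-9.60, SE 1.49, adjusted p = 0.00012) and 458 CPM in Pvalb nuclei (-9.84, SE 1.32, adjusted p = 1.97e-05). Within the striatal class Grk3 had 0 reads in Drd1 and 4 in Drd2 nuclei, so that nearly all of its 722 reads came from unsplit nuclei. The 6 listed astrocyte markers summed to 871 CPM in unsplit, 35.9 CPM in Drd1 and 57.1 CPM in Drd2 nuclei. The part of RNA from astrocytes was not tested. Grk3 passed the filter in the striatal comparisons mainly through the other class. It was higher in Pvalb than in excitatory nuclei (2.35, SE 0.59, adjusted p = 0.0169). Between Drd1 and Drd2 nuclei and between Sst and Pvalb nuclei, edgeR called 0 genes of any of these lists; the smallest p was 0.0726 (Kcnj3) in the Drd1 comparison and 0.000824 (Scg5, adjusted p = 0.0779) in the Sst comparison. Of 3 genes for other opioid-binding proteins, Ogfr passed the filter in each comparison and was called in none.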

How the data were processed

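Single nuclei were sorted for the reporter, and their polyA RNA was made into SMART-Seq v4 libraries of 1 nucleus each, per the labels' protocols. The authors deposited raw read counts per gene for 2501 nuclei as whole numbers, and the 904 columns whose names match the labelled samples were used; the other 1597 columns were not used. The submitters' processing notes name the aligner STAR 2.7.2a and the genome build mm10. How reads were assigned to genes is not given in the sources used here. Of the gene identifiers 32158 were matched to symbols and 127 were not.

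Nuclei with fewer than 1000 genes or 10000 reads were removed (69). CPM was computed over all genes of a nucleus, or of the summed counts of a class. Counts were summed per construct title and class, and classes were compared in 7 fits with edgeR 4.0.16 in R 4.3.3 (filterByExpr, TMM, quasi-likelihood F test with the construct title as a block, Benjamini-Hochberg adjustment over all tested genes, called under 0.05). Each fit took titles with at least 3 nuclei in both classes. A gene can pass filterByExpr through the sums of 1 class alone. Standard errors are the log2 fold change divided by the square root of F. The fit was checked on simulated counts. DESeq2 1.42.0, RLE scaling, no low-count filter, at least 5 nuclei, at least 2000 genes, no block, grouping by vector label, single pools and leaving out constructs were the alternatives. Detection was also computed after thinning each nucleus to 50000 reads.

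Construct titles and vector labels disagree (4 to 5 vectors per title and 3 to 9 titles per vector), so constructs were not compared with each other. The members, gene lists and tests were chosen with earlier results of these data known. Values are given for all 7 opioid genes, for the 2 genes with the smallest p of each pathway list where they were called or are named as not called, and for the 3 genes whose profile is most like each member. Kept nuclei held 30023 to 719419 reads, and intervals on shares cover counting error only.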

Additional observations from a re-analysis of the deposited data

Results flagged for a closer look

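In 11 groups of construct sums, 2 held 1 sum far from the others. The cut-off is set to flag about 1 group in 20 by chance, but that rate does not hold for sums mostly at 0. Where all other sums are at 0, a single sum above 0 is always flagged. The flags are thus a description. Oprd1 in Drd2 striatal projection nuclei had 62.3 CPM in the construct titled DLX2.0-SYFP2-H2B-U7snRNAOPT-BC (4 nuclei), against a next highest of 2.74 CPM among 8 constructs. Pdyn in unsplit striatal projection nuclei had 717 CPM in the construct titled DLX2.0-SYFP2-10aa-H2Bmod-BC (3 nuclei), and the other sums of the 5 were at 0.

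Opioid genes were also read in nuclei that entered no comparison. The 117 nuclei of no class had 169.7 CPM of Penk with reads in 30 nuclei, 48.7 CPM of Pnoc in 12, 43.8 CPM of Oprl1 in 18 and 11.7 CPM of Pdyn in 2. Oprm1 had 7.78 CPM there in 8 nuclei, Oprd1 4.53 CPM in 4 and Oprk1 0.195 CPM in 1, all above the 0.0977 CPM that a count of 0 allows. The Pnoc level of this set is above that of each named class.

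In the 92 nuclei that met the rules of several classes, where the limit of a count of 0 was 0.117 CPM, Penk had 841 CPM with reads in 32 nuclei. The other peptide genes had 86.8 CPM (Pdyn, 9 nuclei) and 1.68 CPM (Pnoc, 2 nuclei). The receptor genes had 32.7 CPM (Oprl1, 15 nuclei), 8.94 CPM (Oprk1, 5 nuclei), 8.79 CPM (Oprd1, 7 nuclei) and 7.73 CPM (Oprm1, 6 nuclei). Of these 92 nuclei, 38 met the striatal projection and the Sst rules together.

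In the 69 nuclei removed by the filter on genes and reads, Penk had 395 CPM with reads in 9 nuclei. Oprk1 had 146 CPM, all of it in 1 nucleus. No effect of a class on an opioid gene ran in opposite directions in every construct of 1 pool and of another, among 42 pairs compared.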

How the results depend on the processing

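Penk kept its direction and its call in the 3 comparisons of the striatal projection class under every alternative that could be run, constructs left out in turn included; in Drd1 against Drd2 nuclei it did so except without 1 construct (adjusted p = 0.0529, edgeR). The count of called opioid genes changed as follows. In Drd1 against Drd2 nuclei it was 2, and 1 with at least 2000 genes, grouped by vector label and in pool S40325. With no low-count filter it was 3 in striatal projection against excitatory, Sst and Pvalb nuclei (1 in each with the filter), 1 in Sst against Pvalb and in Sst against excitatory nuclei, and 2 in Pvalb against excitatory nuclei (0 in each with the filter). Grouped by vector label it was 2 in striatal projection against excitatory and 1 in Sst against excitatory nuclei, where it was also 1 with at least 5 nuclei. DESeq2 gave 3 in striatal projection against Sst and 1 in Pvalb against excitatory nuclei, and pool S40327 gave 1 in Sst against Pvalb nuclei. More opioid genes are tested with no filter, but not all added calls were of newly tested genes. Oprk1 in striatal projection against Sst nuclei and Penk in Pvalb against excitatory nuclei had passed the filter and were not called with it. The cause of the changes was not tested for any setting.

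Counts over all genes moved more. Drd1 against Drd2 called 9 genes, against 19 with no filter, 150 by DESeq2, 5 with at least 2000 genes and 2 in pool S40325. Striatal projection against excitatory called 387, against 621 with no filter, 1656 by DESeq2, 243 by vector label and 34 in pool S40327. Striatal projection against Sst called 603, against 995 with no filter, 2004 by DESeq2, 80 in pool S40325 and 236 in pool S40327. Striatal projection against Pvalb called 487, against 843 with no filter, 1684 by DESeq2 and 320 with at least 5 nuclei. Sst against Pvalb called 71, against 181 with no filter, 664 by DESeq2, 44 with no construct block, 34 with at least 5 nuclei, 2 in pool S40325 and 8 in pool S40327. Sst against excitatory called 347, against 723 with no filter, 1525 by DESeq2 and 42 in pool S40327. Pvalb against excitatory called 448, against 933 with no filter, 1863 by DESeq2, 286 with no construct block, 256 with at least 5 nuclei and 36 in pool S40327.

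Uncalled log2 fold changes turned round for Oprk1 in Drd1 against Drd2 nuclei by vector label (0.32), Oprl1 in Sst against Pvalb nuclei in pool S40325 (-0.21), Oprl1 in Pvalb against excitatory nuclei with no construct block (0.40) and Penk in Sst against excitatory nuclei of low Rgs9 (0.76). No paired analysis was possible because the numbers in the labels count nuclei within a construct title; construct was the block instead. Fits in pool S40327 for Drd1 against Drd2, in pool S40325 for the excitatory comparisons, in either pool for striatal projection against Pvalb, and with at least 5 nuclei for Drd1 against Drd2 had fewer than 4 constructs and were not run. Leaving out each construct, planned for comparisons of 5 or fewer constructs, of which there were none, was run after the data were seen where an opioid gene was called. The number of opioid genes called was then 0 to 2 in Drd1 against Drd2, and 1 to 2 in striatal projection against Sst nuclei, where Oprk1 was added. All genes called in Drd1 against Drd2 were 4 to 7.

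Thinning to 50000 reads left most shares in place: Oprk1 had reads in 22 of 112 Drd1 nuclei (23 before), Oprl1 in 29 of 114 Sst nuclei (32 before) and Oprd1 in 14 of 92 Pvalb nuclei (17 before). Receptor levels rest on few nuclei, and Oprd1, Oprm1 and Pnoc passed the low-count filter in none of the 7 comparisons as reported.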
